A study of Mus musculus with 12 samples.

Results

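The genes described are 10 genes of surfactant and of the type II cell, which were chosen by name: Sftpa1, Sftpb, Sftpc, Sftpd, Abca3, Lamp3, Lpcat1, Napsa, Slc34a2 and Fabp5. An Affymetrix array measures each gene with 1 or more probe sets, and a gene was taken as measured where a probe set carried its symbol alone. In all, 8 of the 10 genes were measured, of 17097 genes on the array with such a probe set. Sftpb and Lamp3 had no probe set named for them alone in the annotation used here and were not analysed here. The brightest probe set over the lung arrays stood for each gene. Values are on the log2 scale of robust multiarray averaging (RMA), so that a difference of 1 is a 2-fold difference.

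The lungs came from Abcb11+/- offspring of an Abcb11-/- mother crossed with a wild-type (WT) male, or of a WT mother crossed with an Abcb11-/- male, all on the C57BL/6 background. Abcb11 encodes the canalicular bile salt export pump, and its loss in the mother is a model of cholestasis. Every pup therefore carried 1 functional allele, and the groups differed in the mother (and in the sire). There was 1 lung array for each mother at embryonic day 17.5 (E17.5), at E18.5 and at postnatal day 0 (PN0), 6 in all, and how many pups each array stands for is not stated in the sources used here, although a legend gives several animals a group for lung expression at E18.5 and PN0. The 6 liver arrays, which serve only as background, came from 3 Abcb11-/- and 3 WT female C57BL/6 mice aged 1.5 months. Abcb11 itself was at 2.90 to 3.26 in the Abcb11-/- livers against 10.88 to 11.22 in the WT livers, and at 2.96 to 3.20 on the lung arrays.

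Type II cells of the alveolus make surfactant, a film of phospholipid and a few proteins that lowers surface tension and keeps the airspaces from collapsing in air. Its lipid is assembled and packed into lamellar bodies and released shortly before and at birth, and several of its genes rise late in gestation. Surfactant proteins B and C are small and hydrophobic and work in the film, while surfactant proteins A and D are collectins of innate immunity. All 12 measured pan-epithelial genes, used to check the tissue, averaged a log2 value of 7 or more on the lung arrays. These are whole lungs, in which fewer cells of a type and less RNA per cell cannot be told apart.

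Between E17.5 and E18.5 all 8 measured genes had a positive fitted change, from 0.12 for Sftpc to 1.87 for Sftpd, of which none passed the test. The 8 include Napsa, which was dim on every array, and Sftpc, which lay close to the top of every array. The changes between E18.5 and PN0 were small and of either sign. With an Abcb11-/- mother, 1 gene of 7 (Sftpd) was at least 1.5-fold higher at E18.5 than at E17.5. With a WT mother 5 of 7 were (Sftpa1, Sftpd, Lpcat1, Slc34a2 and Fabp5). Only genes reaching a log2 value of 7 were counted, and over all such genes the shares higher were 3.56% and 7.26%. At E17.5 itself, 4 of 7 (Sftpa1, Sftpd, Lpcat1 and Fabp5) exceeded the WT mother's level by 1.5-fold or more with an Abcb11-/- mother. Over all such genes 3.02% did. The Abcb11-/- mother's E17.5 array also carried hepatocyte and skeletal muscle genes. At PN0 only Fabp5 was 1.5-fold apart between the mothers, beside 3.36% of all such genes higher and 2.88% lower.

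**Figure D1:**
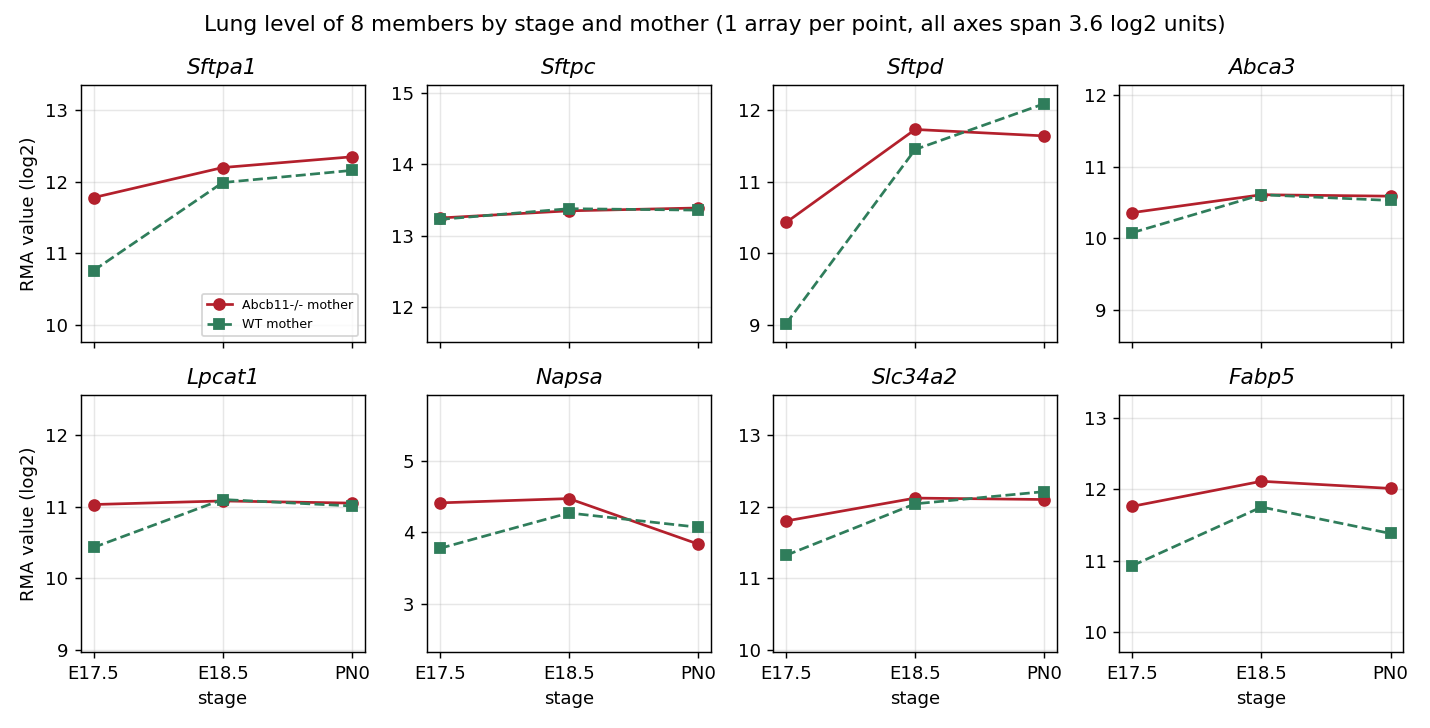
RMA values (log2, vertical axis) of the 8 measured genes by stage (horizontal axis), with red circles for the Abcb11-/- mother and green squares for the WT mother, 1 array per point. Each axis spans the same number of log2 units, and the curves lie furthest apart at E17.5 for Sftpd and Sftpa1, while those of Sftpc lie on top of each other.

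Sftpd, surfactant protein D, a collectin that binds microbes and takes part in surfactant turnover, covered the widest range of the 8 genes. With an Abcb11-/- mother its level was 10.43 at E17.5, 11.73 at E18.5 and 11.64 at PN0, and with a WT mother it was 9.02, 11.45 and 12.09. Both E17.5 arrays were therefore below every later array, and the WT mother's array at E17.5 was the lowest of the 6. The change between E17.5 and E18.5 was 1.30 with an Abcb11-/- mother (2.46-fold) and 2.44 with a WT mother (5.41-fold). After E18.5 the courses parted, with a change of -0.09 to PN0 with an Abcb11-/- mother and of 0.64 (1.56-fold) with a WT mother.

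Sftpa1, surfactant protein A, the most abundant collectin of surfactant, had a similar course over a smaller range. With an Abcb11-/- mother it was at 11.78, 12.20 and 12.35 at E17.5, E18.5 and PN0, and with a WT mother at 10.76, 11.99 and 12.16. The WT mother's array at E17.5 stood alone below the other 5. A second, dimmer probe set of Sftpa1 had a similar course, at 10.12, 10.50 and 10.76 with an Abcb11-/- mother and 8.74, 10.23 and 10.29 with a WT mother. Its differences between the mothers were wider, at 1.38, 0.27 and 0.47.

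Sftpc, surfactant protein C, a defining product of type II cells, hardly moved. Its values were 13.25, 13.35 and 13.39 with an Abcb11-/- mother and 13.23, 13.38 and 13.36 with a WT mother, a range of 0.15 over the 6 arrays. The brightest probe set of any gene was at 13.50 to 13.57 on these arrays, and Sftpc lay only 0.15 to 0.34 below it, with 2 to 5 probe sets brighter. A difference of Sftpc between the arrays may not be visible that close to the top.

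The other genes left more room. Sftpa1 came within 1.18 of the brightest probe set (PN0, Abcb11-/- mother), Slc34a2 within 1.35, Fabp5 within 1.39 and Sftpd within 1.47. Lpcat1 stayed at least 2.41 and Abca3 at least 2.88 below it. Napsa was at the other end, 9.02 or more below.

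**Figure D2:**
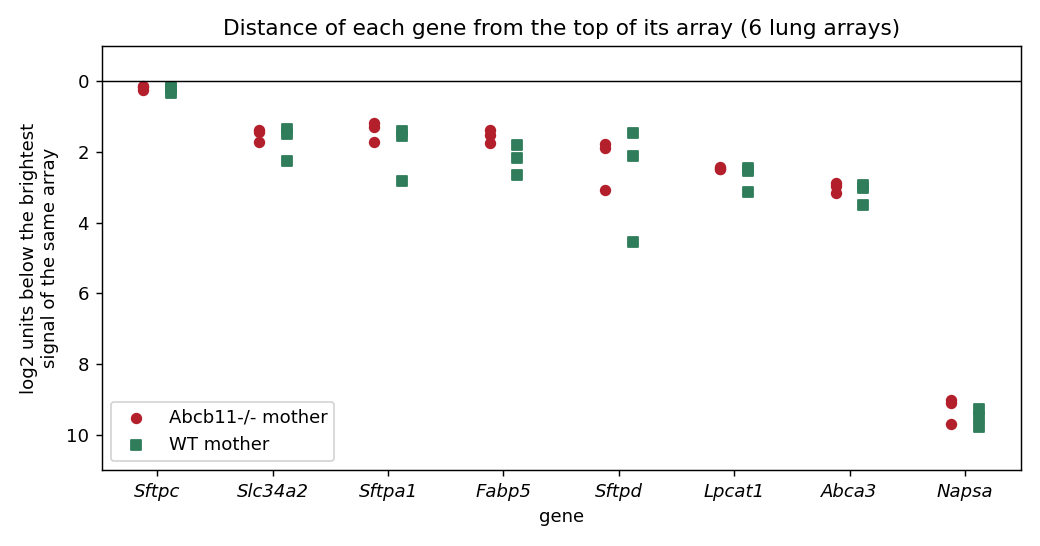
Distance of each measured gene below the brightest signal of the same lung array (log2 units, vertical axis with the top of the array at 0), with red circles for arrays of the Abcb11-/- mother and green squares for those of the WT mother. Sftpc lies within 0.34 of the top on all 6 arrays, and Napsa lies more than 9 below it.

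Of the genes of lipid handling, Abca3, the ABC transporter that carries phospholipid into the lamellar body, was at 10.36, 10.61 and 10.59 with an Abcb11-/- mother and at 10.08, 10.61 and 10.53 with a WT mother. It changed by -0.02 from E18.5 to PN0 with an Abcb11-/- mother and by -0.07 with a WT mother, and both E17.5 arrays were lower. A second Abca3 probe set was likewise lower at E17.5 than at E18.5 (8.99 and 9.23 with an Abcb11-/- mother, 8.66 and 9.20 with a WT mother), and the remaining one was dim, with a mean of 3.02.

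Lpcat1, the acyltransferase that remodels phosphatidylcholine into its disaturated form, was level with an Abcb11-/- mother, at 11.03, 11.08 and 11.05. With a WT mother it was at 10.43, 11.10 and 11.01. Only the WT mother's array at E17.5 stood apart, and the remaining 5 lay between 11.01 and 11.10. Of its 5 probe sets, 2 others were bright and also had their lowest value on that array (10.40 and 10.65), and 2 were dim, with means of 2.85 and 3.24.

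Slc34a2, the sodium-phosphate cotransporter of the type II cell's apical membrane, was at 11.80, 12.12 and 12.10 with an Abcb11-/- mother and at 11.32, 12.04 and 12.21 with a WT mother. Both E17.5 arrays were again the lowest. Fabp5, a cytoplasmic fatty acid carrier found in type II cells and in other cells too, was at 11.76, 12.11 and 12.01 with an Abcb11-/- mother and at 10.93, 11.75 and 11.38 with a WT mother. It was the only gene of the 8 that was higher with an Abcb11-/- mother by at least 0.35 at every stage. Its second probe set had wider differences between the mothers, of 1.08, 0.47 and 0.88 at the 3 stages.

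Napsa, the aspartic protease that processes the precursor of surfactant protein B, was dim on every array with its only probe set. It was at 4.41, 4.47 and 3.84 with an Abcb11-/- mother and at 3.78, 4.27 and 4.07 with a WT mother, near the array medians of 3.63 to 3.68. It reached a log2 value of 7 on no array and did not enter the counts of 1.5-fold differences below, which leaves 7 genes.

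The promoters of Sftpa1 and Slc34a2 are shown because both genes were at least 1.5-fold higher at E18.5 than at E17.5 with a WT mother and both hold a match to a motif searched. They are from RefSeq (build GRCm38.p6, 250 bases before the start of the gene to 50 after it), plus strand, chr14:41131538-41131837 for Sftpa1 and chr5:53049103-53049402 for Slc34a2, with matches in capitals.
Sftpa1: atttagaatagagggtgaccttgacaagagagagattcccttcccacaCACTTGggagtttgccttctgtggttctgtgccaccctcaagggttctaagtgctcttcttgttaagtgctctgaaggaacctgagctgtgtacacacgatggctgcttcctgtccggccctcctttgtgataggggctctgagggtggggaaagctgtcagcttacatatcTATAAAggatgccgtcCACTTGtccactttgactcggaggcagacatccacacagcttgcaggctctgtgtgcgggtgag
Slc34a2: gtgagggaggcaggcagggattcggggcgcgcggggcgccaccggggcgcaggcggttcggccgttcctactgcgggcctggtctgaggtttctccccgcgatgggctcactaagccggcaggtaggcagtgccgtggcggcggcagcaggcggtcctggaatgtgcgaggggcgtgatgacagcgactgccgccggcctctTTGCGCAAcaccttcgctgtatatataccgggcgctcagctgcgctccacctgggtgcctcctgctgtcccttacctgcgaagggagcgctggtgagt
The motifs were searched on both strands. The NKX2-1 motif was CAAGTG, the core of the site of this lung epithelial factor. For FOXA factors both TGTTTAC and its variant TGTTTGC were used. The C/EBP motif was TTGCNNAA, where N is any base. The AP-1 motif was TGANTCA, and the TATA box was taken as TATAAA. The palindrome of NFI was searched too. The Sftpa1 window held the NKX2-1 motif at 2 places, on the minus strand, starting 202 and 14 bases before the gene, and TATAAA 30 bases before it. The Slc34a2 window held the C/EBP motif 48 bases before the gene, where the same 8 bases match on both strands. No match overlapped one of another motif. Of the 10 genes, 6 had a promoter in the table, of which Abca3 and Lpcat1 held none of these motifs, and Sftpb (FOXA and AP-1) and Lamp3 (FOXA) were not measured. Of all 32851 promoters of the table, 13.6% held CAAGTG, 3.65% TGTTTAC, 5.07% TGTTTGC, 10.8% the C/EBP, 1.38% the NFI and 7.81% the AP-1 motif, and 13.6% held TATAAA.

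To test the course, both mothers were fitted together in limma, with stage and mother as terms over the 6 lung arrays and 2 residual degrees of freedom. A change is then the mean over the mothers. Its error combines how far the mothers disagree for that gene with a spread that limma shares over all genes. The shared part counted as 3.83 degrees of freedom, beside the 2 of the gene itself. Both parts take arrays of all stages to vary alike. Where nothing states separate pups, the p-values measure only the spread between these arrays. At E18.5 over E17.5 none of the 8 genes passed an adjusted p of 0.05, beside 0.0526% of all genes called higher and 0.00585% called lower. The fitted changes were 1.87 ± 0.41 (SE) for Sftpd, with an adjusted p of 0.173, and 0.82 ± 0.23 for Sftpa1, with an adjusted p of 0.257. The median change of the 8 genes was 0.46, against 0.01 over all genes, and at an unadjusted p under 0.05 there were 5 of the 8 and 2191 of all genes. Other epithelial gene lists had medians of 0.57 (type I cell), 0.70 (club cell), 0.03 (ciliated cell) and -0.06 (pan-epithelial). A rise at this step was therefore not particular to the 8 genes.

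The size of these changes depended on which E17.5 array was in the fit. Without that of the Abcb11-/- mother, the E18.5 change was 2.62 for Sftpd and 1.23 for Sftpa1. Those changes set the E18.5 arrays against the WT mother's E17.5 array alone. Without the WT mother's E17.5 array instead, the change was 1.12 for Sftpd and 0.41 for Sftpa1. With only the other E17.5 array left, the fit matches that array exactly. Its error then holds no spread at E17.5, so no p-value is given for these fits.

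Between E18.5 and PN0 no gene of the array was called, higher (0%) or lower (0%), with 2098 genes at an unadjusted p under 0.05, none of them among the 8. The fitted changes were positive for 4 genes and negative for 4, of which Sftpc, at 0.01, was negative with quantile normalization and with median centring. That of Sftpd was 0.27, with a 95% interval of -0.74 to 1.28, and that of Sftpa1 was 0.16 (-0.41 to 0.74), so that these data hold the change at birth to no more than a range. For Abca3 the interval was narrower, -0.40 to 0.30.

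Over the whole course, from E17.5 to PN0, Sftpd rose, by 2.14 ± 0.41 (SE) on the log2 scale (4.41-fold), with an adjusted p of 0.0434 in limma. It was the only one of the 8 that was called, beside 3.06% of all genes called higher and 2.83% called lower. Sftpa1 changed by 0.98 (1.98-fold) with an adjusted p of 0.0687 and Slc34a2 by 0.59 (1.51-fold) with an adjusted p of 0.115, and neither passed in the limma fit. Without the WT mother's E17.5 array they came to 0.57 for Sftpa1 and 0.34 for Slc34a2. The call of Sftpd was lost without the E17.5 array of the WT mother (1.39), without either E18.5 array (2.14) and without the PN0 array of the WT mother (1.49). Without the Abcb11-/- mother's E17.5 array, the change was 2.89 for Sftpd and 1.39 for Sftpa1. Again no p-value is given where a stage is left with the array of a single mother.

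**Figure D3:**
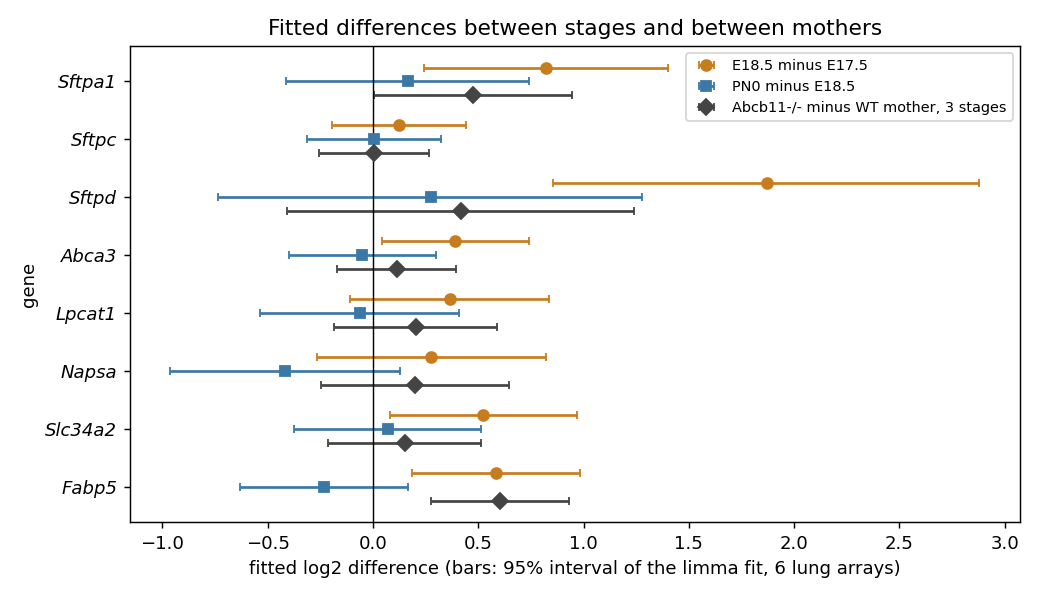
Fitted log2 differences (horizontal axis) of the 8 measured genes with their 95% intervals (bars) from the limma fit over 6 lung arrays. Orange circles are E18.5 minus E17.5, blue squares are PN0 minus E18.5 and dark diamonds are the Abcb11-/- mother minus the WT mother over 3 stages, and the widest departure from 0 is that of Sftpd between E17.5 and E18.5 (1.87).

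The course was also described with each mother apart, where single arrays are compared and no test is possible. A gene was counted where it differed by at least 1.5-fold and its brighter array reached a log2 value of 7, which 7 of the 8 genes did in each comparison. With an Abcb11-/- mother, 1 gene of 7 (Sftpd) was higher at E18.5 than at E17.5 and none lower, beside 3.56% of all such genes higher and 2.94% lower. With a WT mother 5 of 7 were higher and none lower, beside 7.26% higher and 7.68% lower over all genes. With averaged probe sets the count was 4, as the change of Lpcat1 was then 0.33 in place of 0.67. The median change of the 8 genes, the dim Napsa included, was 0.29 with an Abcb11-/- mother and 0.70 with a WT mother. Over all genes with the minimum of 7, which leaves Napsa out, it was 0.02 and -0.04.

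From E18.5 to PN0 with an Abcb11-/- mother none of the 7 differed by 1.5-fold, beside 3.34% of all genes higher and 2.05% lower. With a WT mother 1 was higher (Sftpd), beside 6.71% higher and 6.26% lower. The only test of a difference between the courses is the contrast of E17.5 with the later stages given with the mothers.

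The comparison of the mothers asks whether the surfactant genes of pups differ with the cholestasis of the dam. At E17.5 all 8 differences were positive, although that of Sftpc was 0 with quantile normalization. Sftpd was 2.67-fold higher with an Abcb11-/- mother (a difference of 1.42), Sftpa1 2.03-fold (1.02), Fabp5 1.78-fold (0.83) and Lpcat1 1.52-fold (0.60). For Lpcat1 this holds for the brightest probe set only, since the 2 other bright ones differed by 0.53 and 0.37, and with all its probe sets averaged, dim ones included, Lpcat1 differed by 0.40 and the count of genes 1.5-fold higher was 3 in place of 4. Slc34a2 (0.49), Abca3 (0.28) and Sftpc (0.02) stayed under 1.5-fold, and the dim Napsa differed by 0.64. In counts, 4 of 7 genes were higher and none lower, beside 3.02% of all such genes higher and 2.45% lower. The median difference over the 8 genes, the dim Napsa included, was 0.62. Over all genes with the minimum of 7, which leaves Napsa out, it was -0.05.

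At E18.5 the arrays of the 2 mothers were close. The differences ran from -0.03 for Sftpc to 0.36 for Fabp5, and 0 of 7 genes were 1.5-fold apart, beside 0.677% of all genes higher and 0.403% lower. At PN0, Fabp5 was 1.54-fold higher with an Abcb11-/- mother (0.62) and no gene was lower by as much, beside 3.36% of all genes higher and 2.88% lower. Sftpd was at 11.64 with an Abcb11-/- mother against 12.09 with a WT mother, a difference of -0.45, and Slc34a2 differed by -0.11. Sftpa1 (0.19), Abca3 (0.05), Lpcat1 (0.03) and Sftpc (0.03) were within 0.2 of each other between the mothers at birth. For Sftpa1 this holds for the brightest probe set only, since its second one differed by 0.47.

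**Figure D4:**
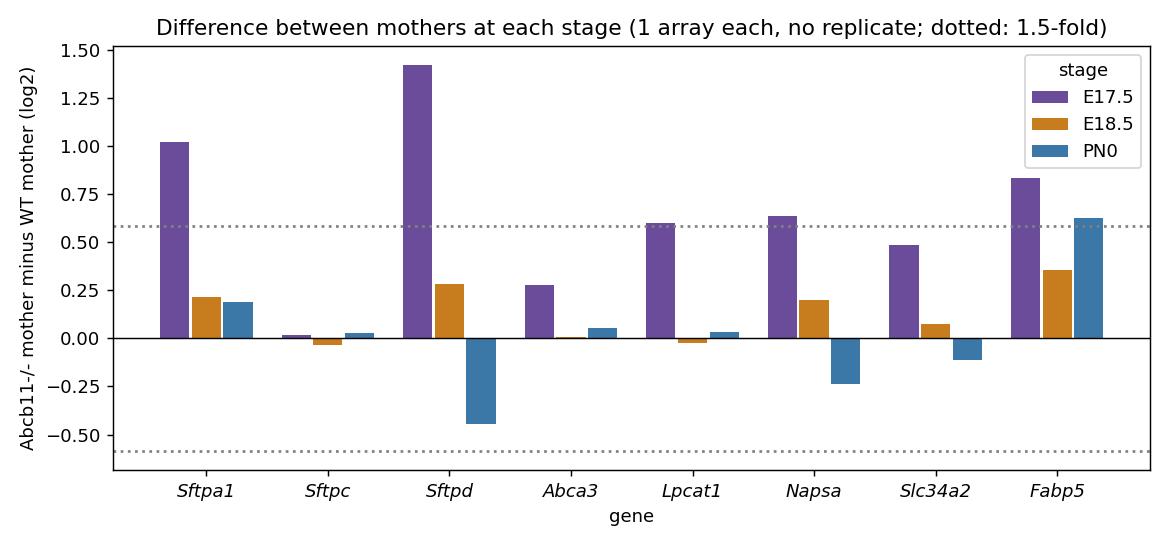
Difference of the Abcb11-/- mother minus the WT mother (log2, vertical axis) for each measured gene at E17.5 (purple), E18.5 (orange) and PN0 (blue), from 1 array each, with dotted lines at 1.5-fold. The E17.5 bars are the tallest for 7 genes, up to 1.42 for Sftpd, and Fabp5 is above 0.35 at all 3 stages.

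Over the 3 stages together no gene of the array was called with the mother, higher (0%) or lower (0%), in limma, with 867 genes at an unadjusted p under 0.05, 2 of them among the 8. The smallest error relative to its size was that of Fabp5, with 0.60 ± 0.13 (SE, 95% interval 0.28 to 0.93) and higher with an Abcb11-/- mother at 3 of 3 stages, but with an adjusted p of 0.926. For Sftpa1 the value was 0.47 (0.00 to 0.95), for Sftpd 0.42 (-0.41 to 1.24) and for Abca3 0.11 (-0.17 to 0.40). Without one or the other E17.5 array, the difference with the mother rests on E18.5 and PN0. Sftpd then came to -0.08 and Slc34a2 to -0.02, while Fabp5 stayed at 0.49 and Sftpa1 at 0.20. The difference at E17.5 minus that at the later stages, a contrast added after the data were seen with 1 residual degree of freedom, was 1.50 ± 0.35 (SE) for Sftpd (adjusted p = 0.33, limma) and 0.82 ± 0.24 for Sftpa1 (adjusted p = 0.473, limma). None of the 8 passed there, beside 0.427% of all genes.

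The Abcb11-/- mother's E17.5 array stood apart in genes of other tissues. Of 11 measured hepatocyte genes, 10 reached a log2 value of 7 on either E17.5 array. All 10 had a level 1.5-fold or more above that with a WT mother, and the median difference over all 11 was 5.0. Their summed level (log2) was 14.51 on that array against 10.92 with a WT mother at E17.5, and 10.96 to 11.53 on the other 4. Alb, the main plasma protein of the liver, was at 13.01 against 9.05 with a WT mother, and the dimmest of the 11, Apob, was at 3.26 against 2.87. Of 12 skeletal muscle genes, 8 of the 8 that reached 7 were higher. Over all 12 the median difference was 4.14 and the summed level was 12.06 against 7.55. The part of these tissues in the surfactant gene differences was not tested. In the adult livers of the same series, Sftpa1, Sftpc, Sftpd, Lpcat1, Napsa and Slc34a2 were all dim, between 2.41 and 4.26, whereas Abca3 and Fabp5 were bright.

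With an Abcb11-/- mother at E17.5, 0 of 12 pan-epithelial genes differed by 1.5-fold (median -0.12), and 2 of 11 type I cell genes, 2 of 6 club cell genes and 2 of 5 ciliated cell genes were higher. Cell cycle genes were lower for 8 of 13 (median -0.63) and smooth muscle genes for 3 of 3 (median -1.03), and neutrophil genes were higher for 3 of 3 (median 1.10). Heart muscle genes were lower for 2 of 4 (median -0.72), and erythroid genes were higher for 2 of 4 (median 0.66) and macrophage genes for 1 of 3. These counts take genes reaching a log2 value of 7, whereas each median and summed level takes all measured genes of its list, dim ones included. Over all genes reaching a log2 value of 7, 3.02% were higher and 2.45% lower. The summed cell cycle level was 12.22 against 12.76 with a WT mother at E17.5, and 10.86 to 11.61 at the later stages. Each of these values compares 1 array per mother, and the part of these cells in the surfactant gene differences was not tested.

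**Figure D5:**
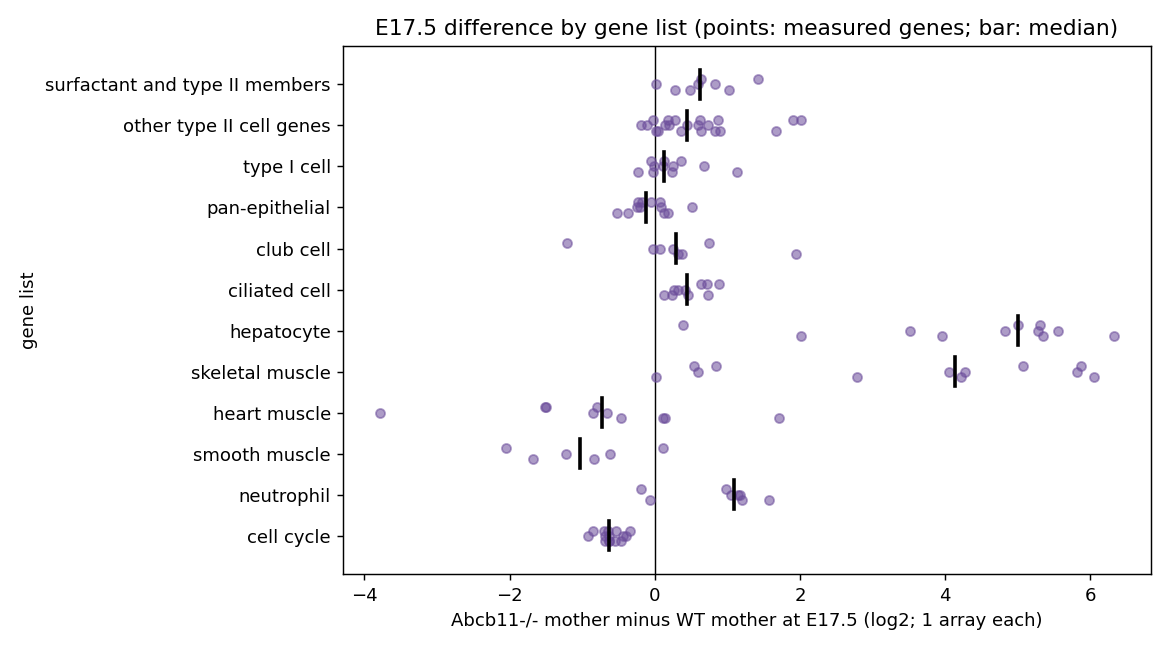
Difference of the Abcb11-/- mother minus the WT mother at E17.5 (log2, horizontal axis, 1 array each) for every measured gene of 12 gene lists, with a black bar at the median of each list. Hepatocyte and skeletal muscle genes lie furthest to the right (medians 5.0 and 4.14), the surfactant genes have a median of 0.62, and pan-epithelial genes lie around 0.

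At PN0, where Fabp5 differed, other markers differed as well. Neutrophil genes were lower with an Abcb11-/- mother for 4 of 4 (summed level 11.36 against 12.07), heart muscle genes were higher for 2 of 4 (11.18 against 10.62) and fibroblast genes for 2 of 8. Lower too were 2 of 12 pan-epithelial genes (Cldn4, -1.0, and Cldn7, -0.62, both of tight junctions), 1 of 5 ciliated cell genes (Tppp3, -1.03), 1 of 4 smooth muscle genes and 1 of 11 endothelial genes, and of 7 club cell genes 1 was higher and 1 lower. Summed levels again take all measured genes of a list, dim ones included. Over all genes reaching a log2 value of 7, 3.36% were higher and 2.88% lower. The part of these markers in the Fabp5 difference was not tested.

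Of 21 other measured genes of the type II cell, 5 rose between E17.5 and PN0 and none fell, beside 3.06% of all genes called higher and 2.83% called lower. The median change of the list was 0.69 against -0.004 over all genes, with single genes down to -0.66 for Etv5 and -0.55 for Egfl6, neither called. Chil1, a secreted chitinase-like protein, rose by 4.58 ± 0.33 (SE, adjusted p = 0.00898, limma) and was at 6.70, 11.18 and 10.69 with an Abcb11-/- mother and 4.80, 10.59 and 9.98 with a WT mother. It was also the one gene of the lists called between E17.5 and E18.5, at 5.13 (adjusted p = 0.0312, limma). Hc, complement component C5 (2.76), Lyz2, a lysozyme (2.02), Il33, an alarmin cytokine (1.30), and Nupr1 (1.08) also rose. Nupr1 is named only because it was among the calls. In these whole lungs, median changes over the same interval were also positive for macrophage genes (0.59) and neutrophil genes (1.05). The part of these cells in the rise of the listed genes, Lyz2 included, was not tested. S100g, a calcium-binding protein, was at 7.95, 8.99 and 9.05 with an Abcb11-/- mother and 6.29, 9.04 and 9.62 with a WT mother.

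With the mother at E17.5, 8 of 18 of these type II cell genes were higher by 1.5-fold or more and none was lower, beside 3.02% of all such genes higher and 2.45% lower, and the median difference over all 21 was 0.44. They were Trf, transferrin (2.01), which also stands on the hepatocyte list, S100g (1.67), Il33 (0.90), Bex2 (0.87), Cxcl15, a lung chemokine (0.83), Cd36, a fatty acid translocase (0.64), Lyz2 (0.62) and Hc (0.59). Chil1 differed by 1.90 but stayed under the minimum of 7 on both E17.5 arrays and was not counted. At E18.5 the count was 1 of 19 (Chil1, 0.59), beside 0.677% of all such genes. At PN0 it was 3 of 19, namely Bex2 (0.92), Chil1 (0.71) and Egfl6 (0.62), beside 3.36% of all such genes.

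Of 24 measured genes of surfactant protein processing, the lamellar body and secretion, 3 rose between E17.5 and PN0 and none fell (median 0.29), beside 3.06% of all genes called higher and 2.83% called lower. They were Csf2rb, a receptor subunit for the cytokine that drives surfactant clearance (1.30), Rab27a, a small GTPase of secretory granules (0.99), and Vamp2, a SNARE of vesicle fusion (0.87), of which Csf2rb and Vamp2 are named only because they were called. Adgrf5, an adhesion receptor that limits surfactant pool size, was at 10.12, 10.60 and 10.75 with an Abcb11-/- mother and at 9.89, 10.81 and 11.32 with a WT mother. Between the mothers, none of these genes was 1.5-fold apart at E17.5 or E18.5. At PN0 1 of 18 was lower (Rab38, a GTPase of lamellar body formation, -0.61), beside 2.88% of all genes with the same minimum.

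Of 36 measured genes of phospholipid and fatty acid supply, 5 rose between E17.5 and PN0 and 1 fell (median 0.12), beside 3.06% of all genes called higher and 2.83% called lower. Pla2g1b, a secreted phospholipase A2 (1.26), and Lpin2, a phosphatidate phosphatase (1.04), were among the 5, with Elovl1 (0.87), Lpin1 (0.82) and Chpt1 (0.74), and Elovl6, a fatty acid elongase, fell by 0.88, the last 4 named only because they were called. Scd1, the desaturase that makes monounsaturated fatty acids, was at 10.71, 11.86 and 11.90 with an Abcb11-/- mother and at 9.05, 11.69 and 10.45 with a WT mother. It differed by 1.65 at E17.5, by 0.18 at E18.5 and by 1.46 at PN0, and Insig1, the sterol-regulated retention protein, by 0.79, 0.04 and 0.74. Fabp4, with the largest PN0 minus E17.5 change of the list among genes averaging at least 7 (1.385, not called), differed by 1.75, 0.08 and -0.49. Lpl differed by 1.02, -0.07 and -0.23 at the 3 stages. In counts, 5 of 25 genes were higher at E17.5 (Scd1, Insig1, Fabp4, Lpl and Pla2g1b) and 1 lower (Slc44a1, -0.68). The shares over all such genes were 3.02% higher and 2.45% lower. None of 25 differed at E18.5, and 3 of 26 were higher at PN0 (Scd1, Insig1 and Fasn, fatty acid synthase, 0.60), beside 3.36% of all such genes higher.

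Of 27 measured regulators of surfactant genes, 2 rose between E17.5 and PN0, Epas1, a hypoxia-inducible factor (1.33), and Cebpd, a C/EBP factor (0.94), and 1 fell, Klf5 (-0.80, named because it was called), beside 3.06% of all genes called higher and 2.83% called lower. Between the mothers, 1 of 22 was 1.5-fold higher at E17.5 (Cebpa, 0.72), beside 3.02% of all genes with the same minimum, and none at E18.5 or PN0. Cebpa was at 8.71, 8.96 and 8.76 with an Abcb11-/- mother and at 7.98, 8.82 and 8.75 with a WT mother, the WT mother's array at E17.5 again being the lowest.

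The genes whose course was most like the mean of the 8 were found by Pearson's r over the 6 lung arrays, among 635 genes with a mean of at least 7 and a range of at least 1. The closest were Met, the hepatocyte growth factor receptor (r = 0.985), Kcnj13, a potassium channel (0.983), Cbr2, a carbonyl reductase (0.982), Apoe, a lipoprotein (0.980), and Tmem212 (0.979). Prkg2, Ugt1a6a, Glrx, Msln and Bcl2a1a followed, down to 0.970, and 24 genes had an r of 0.95 or more. Met was at 8.18, 8.70 and 8.69 with an Abcb11-/- mother and at 7.44, 8.62 and 8.67 with a WT mother, with the WT mother's array at E17.5 the lowest and the Abcb11-/- mother's E17.5 array next. Without the Abcb11-/- mother's E17.5 array, 5 of the 10 stayed among the 10 closest. Of the 8 genes themselves, Abca3 followed the mean most closely (0.983) and Napsa least (0.553). Each of the 8, the dim Napsa included, is part of that mean, so their r cannot be set against that of other genes. With 6 points that share their arrays, these values describe a shape and were not tested.

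In the adult liver most of these genes were near the bottom of the array, as background. Abca3, which other tissues express too, was at 8.79 ± 0.18 in Abcb11-/- livers and 9.22 ± 0.18 in WT livers (SD, n = 3 each), without overlap, a difference of -0.43 with an adjusted p of 0.096 in limma. Fabp5 was at 10.97 ± 0.49 in Abcb11-/- livers and 11.26 ± 0.36 in WT livers, which overlap. Of the 8 genes only Sftpd was called, at 3.72, 3.84 and 4.26 in Abcb11-/- livers against 3.20, 3.32 and 3.37 in WT livers (0.64 ± 0.15 SE, adjusted p = 0.0414, limma), close to the liver array medians of 3.15 to 3.18. Of all genes, 4.31% were called higher and 2.86% lower in Abcb11-/- livers. The Sftpd call was lost without any 1 of the WT livers or of Abcb11-/- livers 2 and 3 (adjusted p of 0.053 to 0.137), at values of 0.48 to 0.69.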

How the data were processed

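The authors hybridized biotin-labelled RNA to Affymetrix mouse HT MG-430 PM plate arrays and summarized the scanned signals by RMA, with Partek 6.5 named in the processing notes of the submitters. What they deposited is log2 intensity, with an array median of 3.63 to 3.68 for lung and of 3.15 to 3.18 for liver, and no level was set across the tissues. Detection calls were not used here, and precision is limited by the number of arrays. The annotation gave 1 gene symbol to 28898 of 45037 probe sets, several to 551 and none to 15588, and 28689 of the first could be matched by gene number to GRCm38.p6. The probe set with the highest mean over the 6 lung arrays stood for each of 17097 genes.

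Values were tested in R 4.3.3 with limma 3.58.1 (lmFit and eBayes), with Benjamini-Hochberg adjustment over all genes and a threshold of 0.05. The lung fit had stage and mother as terms over 6 arrays, and the liver fit had genotype over 6 arrays. The fits were run on simulated data with known changes, and the required check was that they returned the right direction. The simulated noise was independent and of the same spread on every array, so it does not cover an array unlike the others. Differences between single arrays were counted at 1.5-fold with a brighter array of at least 7. The genes and gene lists were chosen with earlier results of these data known. Named list genes are, of each list, the 4 with the largest PN0 minus E17.5 change among those averaging at least 7 and any at least 1.5-fold apart between the mothers, with exceptions named as such. Vamp8 (0.66), Abcg1 (0.57) and Stat3 (0.64) also met this rule by their PN0 minus E17.5 change, and none of them was called. Alternatives were averaged probe sets, other minimums and folds, quantile normalization, median centring, a trended and robust prior, fits of fewer stages or without the mother, the liver replicate number as a block, the methods' test, and leaving out each array. The fit of E17.5 against the later stages was added after the data were seen. Q-PCR, protein and lipid measurements were not analysed here.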

Additional observations from a re-analysis of the deposited data

How the results depend on the processing

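Of the fitted changes of single genes under these alternatives, 437 kept their direction and their side of the threshold, 13 lost a call, 8 gained one and 28 turned sign, all of them small or of the dim Napsa except Sftpd with the mother and from E18.5 to PN0. Over all genes, the count called between E17.5 and E18.5 was 10, against 45 with a mean of at least 6, 0 with quantile normalization, 197 with the trended and robust prior (1 of the 8, Fabp5) and 1 with the E17.5 and E18.5 arrays alone. Between E18.5 and PN0 it was 0, against 14 with averaged probe sets, 18 with a mean of at least 6 or with stage alone, 87 with the trended prior and 35 with the E18.5 and PN0 arrays alone. From E17.5 to PN0 it was 1008, against 1783 with the trended prior. Of the 8 genes, 1 was called there, against 2 with a mean of at least 6 (Sftpa1 added) and 0 with quantile normalization (Sftpd at 2.17, adjusted p = 0.0558, limma). With the trended prior Sftpd was not called (adjusted p = 0.209, limma) and Slc34a2 was. With the mother it was 0, against 1 with a mean of at least 6 or the trended prior, and for E17.5 against later stages 73, against 123 (and 1 of the 8) with the trended prior. At 2-fold, the surfactant genes apart were 2 at E17.5 and 0 at PN0 between the mothers, and with a WT mother 2 at E18.5 and 0 at PN0. With no minimum, 1 (Napsa) was lower at PN0 than at E18.5 with an Abcb11-/- mother. From E18.5 to PN0, Lpcat1 (-0.06) was at 0.0356 with averaged probe sets, and Sftpc (0.01) was at -0.0138 with quantile normalization and -0.0103 with median centring.

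Leaving out each array in turn, the counts of genes called ran from 0 to 307 between E17.5 and E18.5 (0 to 2 of the 8 genes), from 0 to 35 between E18.5 and PN0, from 26 to 1284 from E17.5 to PN0 (0 to 2 of the 8) and from 505 to 1480 in the liver (0 to 1 of the 8). Dropping a lung array leaves its stage with the array of the other mother alone, which the fit then matches exactly. That stage adds nothing to the error, and these lung counts do not measure its spread. The values that turned sign ran, with the mother, from -0.0825 to 0.85 for Sftpd, -0.0179 to 0.28 for Slc34a2, -0.0172 to 0.42 for Napsa and -0.0064 to 0.0243 for Sftpc. From E18.5 to PN0 they ran from -0.37 to 0.92 for Sftpd, -0.0499 to 0.38 for Sftpa1, -0.13 to 0.27 for Slc34a2, -0.13 to 0.0307 for Abca3, -0.23 to 0.11 for Lpcat1 and -0.0232 to 0.0338 for Sftpc. Napsa ran from -0.0485 to 0.60 between E17.5 and E18.5, from -0.47 to 0.19 from E17.5 to PN0 and from -0.0917 to 0.13 in the liver. Genes with an r of 0.95 or more to the mean profile were 44 without the Abcb11-/- mother's E17.5 array. The cause of these changes was not tested.

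In the liver, 1226 genes and 1 of the 8 (Sftpd) were called, against 675 and 0 with the replicate block (Sftpd 0.64, adjusted p = 0.0541, limma). Same-numbered livers did not deviate together (correlations of -0.05, -0.04 and -0.14, and 0 of the samples correlated best with its own number). No pairing by number was seen, but 3 livers per genotype are too few to exclude one. A mean of at least 6 leaves out the dim Sftpd and called 0 of the 8. The methods' test gave 3124 genes and 3 of the 8 without adjustment, and 49 and 0 after Benjamini-Hochberg.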
